A study of Saccharomyces cerevisiae with 24 samples.

Results

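The response of budding yeast to the DNA alkylating agent methyl methanesulfonate (MMS) was compared between wild type cells and cells without the protein kinase Gcn2. The comparison is between 12 of the 24 libraries of the study, which were those of wild type and of the gcn2Δ::KAN deletion, each untreated or exposed to 0.1% MMS for 1 h, with 3 biological replicates in each of the 4 groups. All cells were haploid BY4741, mating type MATa, grown in the rich medium YPD, and both strains carry the background deletions or disruptions of HIS3, LEU2, MET17 and URA3 of that strain. In the deletion strain the KAN cassette stands in place of GCN2, and whether its 3 replicates came from 1 transformant or several is not given in the sources used here. For each gene, the log2 fold change from untreated to MMS in wild type was subtracted from the same change in gcn2Δ. This difference is called the interaction here, and a negative value means that the gene responded less positively to MMS without Gcn2. It was tested for 5820 of the 5912 genes listed, with GCN2 itself left out, in a fit to all 24 libraries that estimated 1 spread per gene over 8 groups. A fit to the 12 libraries alone called 1123 genes higher and 884 lower, against 1082 and 1009. The question of the study, as the strains show it, was how much of the MMS response needs Gcn2, the factor Gcn4 or its coactivator Mbf1. The other 12 libraries were of gcn4Δ and mbf1Δ strains, each untreated or exposed to 0.1% MMS for 1 h, with 3 replicates per group. They entered the fit, and the gcn2Δ response is compared with theirs further below.

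Gcn2 is a kinase that senses uncharged tRNA and stalled or collided ribosomes, with the help of Gcn1 and Gcn20. It phosphorylates the initiation factor eIF2, which lowers general initiation of translation and raises translation of the GCN4 mRNA through its upstream open reading frames. Gcn4 is a basic leucine zipper activator that binds promoters of amino acid synthesis genes, and Mbf1 bridges Gcn4 to the TATA-binding protein. In unstressed rich medium this pathway is known to run at a low level.

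Levels are given as counts scaled to a common library size with TMM factors (CPM), always in the order of replicates 1, 2 and 3. GCN2 (YDR283C) stood at 64.5, 69.6 and 75.9 CPM in untreated wild type and at 72.7, 73.1 and 61.3 CPM after MMS. In gcn2Δ it stood at 0.497, 0.596 and 0.635 CPM untreated and at 0.912, 1.099 and 1.22 CPM after MMS, so each library matched its label. Total counts of the 12 libraries ranged from 13518115 to 24757094. The 6 markers of MATa cells summed to 1270 to 2660 CPM in these libraries, and the 4 markers of MATα cells to 48.4 to 58.8 CPM untreated and 93.8 to 120 CPM after MMS. Of HIS3, LEU2, MET17 and URA3, 2 were at 0 in all 12 libraries. Untreated wild type replicate 3 stood apart from replicates 1 and 2, with a chi-square per degree of freedom of 92.7 and 92.9 against 7.21 between replicates 1 and 2, and MMS-treated gcn2Δ replicate 3 differed from its group by 65.5 and 36. The share of counts at the ribosomal RNA locus was 7.02 to 7.7% in untreated gcn2Δ and 11 to 17.6% in untreated wild type, and 12.1 to 15.2% and 15.2 to 16.9% after MMS. With this share as a covariate the interaction was called higher for 1277 genes and lower for 1216, and with the genes of that locus left out for 1103 and 988, beside 1082 and 1009 in the fit used here.

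The sequences shown in this text are short promoter motifs with the bases around them. Of the 15 genes with the lowest interaction, 8 hold the Gcn4 site TGACTCA, on either strand, within 250 bases before to 50 bases after the start codon. They are shown because these genes rose least, relative to wild type, in cells without Gcn2. The 29 bases around each site follow, read on the strand of the gene in the RefSeq R64 genome, with the Gcn4 site in capitals (as TGAGTCA where it lies on the opposite strand).
ARG4: tagtagatgaaTGACTCActttttggata
HIS4: cccatgcacagTGACTCAcgtttttttat
ARG7: gacaggtaggaTGACTCActgcgtaattc
TMT1: gttgatgttcaTGACTCAcagtaatatcc
RTC2: ccttgcagcaaTGACTCAaattccattgg
BNA1: aggataaattgTGAGTCActgaaacatat
ADH5: tcgcggaaggaTGAGTCAaaaagcatgtg
ALD5: tggaagacttcTGACTCAtcactacgcag
These windows lie at chrVIII:141564-141592 on the minus strand for ARG4, chrIII:68515-68543 on the minus strand for HIS4, chrXIII:396514-396542 on the minus strand for ARG7 and chrV:540516-540544 on the minus strand for TMT1. Those of RTC2 (chrII:536342-536370), ADH5 (chrII:533524-533552) and ALD5 (chrV:303792-303820) are on the plus strand, and that of BNA1 (chrX:471776-471804) is on the minus strand. The sites begin 122 bases before the start codon in BNA1 and 179 to 227 bases before it in ARG4, HIS4, RTC2, ADH5 and ALD5, with ARG7 at 152 and TMT1 at 170. Over all 5817 promoters read, 2.78% hold the motif. A match is a stretch of letters and does not show that Gcn4 was bound there.

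The interaction was called at an adjusted p under 0.05 (edgeR's quasi-likelihood test, Benjamini-Hochberg over all genes tested) for 2091 genes, which is 35.9% of those tested. It was higher in gcn2Δ for 1082 genes (18.6%) and lower for 1009 genes (17.3%). At least 2-fold interactions were less balanced, with 221 genes lower and 124 higher. Before treatment the strains differed little: 25 genes (0.43%) were called, 7 higher and 18 lower in gcn2Δ, although 1517 had an unadjusted p under 0.05. After MMS 3301 genes (56.7%) differed, 1818 higher and 1483 lower (25.5%). MMS itself changed most genes: 2442 (42%) rose and 2397 (41.2%) fell in wild type, and 2406 (41.3%) rose and 2350 (40.4%) fell in gcn2Δ. The count before treatment rested on untreated wild type replicate 3, since without that library 1156 genes (19.8%) were called, 530 higher and 626 lower. The interaction changed little without it, with 1032 genes higher and 981 lower, and without treated gcn2Δ replicate 3 the counts were 1194 and 957. On the TPM scale with 1 added (limma), where the median difference of all genes moved from 0.02 to 0.33 (log2) before treatment and from 0.05 to 0.35 after it, 2836 genes were higher and 26 lower before treatment, and 3059 higher and 585 lower after it. The median interaction of all genes was 0.03 on that scale.

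Genes of amino acid synthesis had lower interactions across most members of each pathway. The lists for arginine, histidine, lysine, branched-chain, aromatic, and serine, threonine and one-carbon synthesis held 72 genes together. Of these 62 were lower in the interaction, 1 was higher and 9 were not called, against 17.3% lower and 18.6% higher over all genes. The median interaction of these 72 genes was -1.25, against 0.04 over all genes tested. In wild type 43 of them rose and 21 fell after MMS, with a median of 0.82, against 42% and 41.2% of all genes. In gcn2Δ 13 rose and 48 fell, with a median of -0.75, against 41.3% and 40.4% of all genes. Before treatment 4 of the 72 were called lower in gcn2Δ, or 30 lower and 1 higher without untreated wild type replicate 3, with a median of -0.18 or -0.23. Without that library 62 of the 72 still had a lower interaction.

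Arginine synthesis had the lowest median. All 11 measured genes had a lower interaction, with a median of -3.00, while their median response was 3.22 in wild type and 0.00 in gcn2Δ. ARG1, argininosuccinate synthetase (chromosome XV, 219211 to 220473), was at 50.4, 51.7 and 46.97 CPM in untreated wild type and 1059.9, 952 and 1008 CPM after MMS. In gcn2Δ it was at 36.5, 39.6 and 34.03 CPM untreated and 37.9, 38.5 and 48.1 CPM after MMS. The treated wild type libraries lay far above all others, and the treated gcn2Δ libraries overlapped the untreated ones of their strain. The interaction of ARG1 was -4.17 (SE 0.126, adjusted p = 5.08e-17), and it was also lower in untreated gcn2Δ, with a log2 difference of -0.44 (adjusted p = 0.0269).

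ARG4, argininosuccinate lyase, kept a small response without Gcn2. It rose from 67.8, 63.3 and 62.7 to 1675, 1698 and 1666 CPM in wild type, and from 50.7, 49.4 and 49.2 to 92.3, 92.1 and 95.1 CPM in gcn2Δ. The rise was 26-fold in wild type and 1.87-fold in gcn2Δ, with no overlap between any of the 4 groups, and the interaction was -3.80 (SE 0.0777, adjusted p = 3.84e-20). ARG3, ornithine carbamoyltransferase, also rose in both strains, from 3.601, 2.85 and 2.77 to 90.4, 96.04 and 99.3 CPM in wild type and from 2.14, 2.32 and 2.22 to 10.6, 9.89 and 8.502 CPM in gcn2Δ. Its interaction was -2.84 (SE 0.289).

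ARG7, the mitochondrial ornithine acetyltransferase, changed sign between strains. In wild type it went from 81.03, 75.7 and 75.6 to 711, 749 and 697 CPM, and in gcn2Δ it fell from 73.7, 76.1 and 72.2 to 45.3, 43.9 and 43.4 CPM. The difference between strains before treatment was not called (log2 -0.07, adjusted p = 0.402), and the interaction was -3.96 (SE 0.0726, adjusted p = 7.43e-21). CPA1, the small subunit of the arginine-specific carbamoyl phosphate synthetase, had an interaction of -3.00, and YOR302W, its upstream open reading frame, of -4.14, but 72% of the flanked model of YOR302W is shared with neighbouring models. ARG5,6, ORT1 and ARG2 had interactions of -2.73, -2.08 and -1.26. ARG8, acetylornithine aminotransferase, had the smallest of the list at -0.94: MMS left it at 44.4, 45.8 and 52.5 and 50.9, 48.3 and 47.8 CPM in wild type, while it fell from 45.9, 47.1 and 42.9 to 22.9, 24.99 and 24.9 CPM in gcn2Δ.

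**Figure D1:**
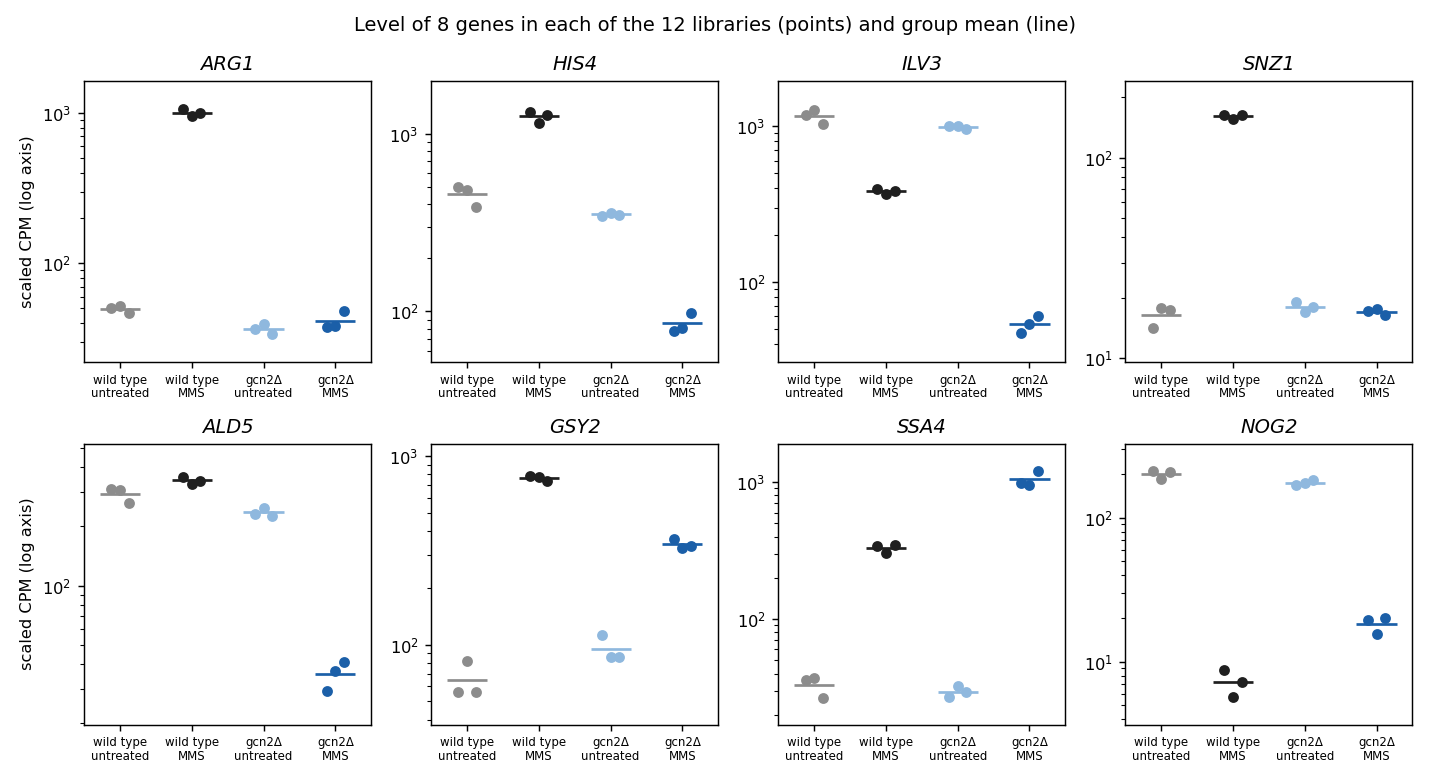
CPM of 8 genes on log axes, with 1 point per library in untreated and MMS-treated wild type and gcn2Δ cells and a line at each group's mean (n = 3). ARG1 and SNZ1 were high only in treated wild type, HIS4 went in opposite directions in the 2 strains, ILV3 fell in both, ALD5 fell in gcn2Δ and rose slightly in wild type, GSY2 rose less in gcn2Δ, SSA4 rose more, and NOG2 fell less.

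Histidine synthesis genes mostly rose in wild type and fell in gcn2Δ. Of 7 genes 6 had a lower interaction, with a median of -2.20, and the median response of the 7 was 0.93 in wild type and -1.22 in gcn2Δ. HIS4, which encodes several steps of the pathway in 1 protein, rose from 499, 485 and 386 to 1319, 1153 and 1272 CPM in wild type. In gcn2Δ it fell from 345, 359.7 and 349 to 77.9, 80.9 and 97.9 CPM, below every untreated library. The interaction was -3.49 (SE 0.152, adjusted p = 3.51e-14). HIS1, which catalyses the first step, rose from 489 ± 10.5 to 695 ± 28.3 CPM (SD, n = 3) in wild type and fell from 438 ± 24.4 to 86.6 ± 6.07 CPM in gcn2Δ, an interaction of -2.85 (SE 0.0914). HIS5, HIS7 and HIS2 had interactions of -2.32, -1.41 and -0.90. The transcript of HIS3, which BY4741 carries as a disrupted allele, had one of -2.20. HIS6 did not pass the test at -0.23 (adjusted p = 0.228).

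Lysine synthesis was lower in all 9 genes, with a median of -1.14. LYS1, saccharopine dehydrogenase, rose from 56.5, 54.9 and 47.4 to 532, 487 and 490.2 CPM in wild type and from 44.2, 46.98 and 46.5 to 90.8, 95.4 and 103 CPM in gcn2Δ. Both strains responded without overlap, and the rise was 9.53-fold in wild type and 2.1-fold in gcn2Δ, an interaction of -2.18 (SE 0.0938, adjusted p = 2.98e-14). LYS2, alpha-aminoadipate reductase, changed in opposite directions, from 282 ± 16.5 to 558 ± 23.6 CPM in wild type and from 247 ± 8.18 to 94.02 ± 9.02 CPM in gcn2Δ (SD, n = 3), an interaction of -2.38 (SE 0.0994). The homocitrate synthases LYS20 and LYS21, which are near-identical copies at 95.3% identity and may share reads, had interactions of -1.93 and -1.62. LYS14, the activator of the pathway, was lower by -1.14, and LYS4, homoaconitase, by -0.50, the smallest of the list.

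Branched-chain synthesis fell after MMS in wild type as well. Of 11 genes 10 had a lower interaction with a median of -1.25, and the median response was -0.99 in wild type and -2.12 in gcn2Δ. ILV3, dihydroxyacid dehydratase, went from 1174, 1273 and 1039.6 to 398, 365 and 385 CPM in wild type and from 1006, 997 and 959 to 47.01, 53.9 and 60.1 CPM in gcn2Δ. The treated groups did not overlap, and the fall was 3.04-fold in wild type against 18.4-fold in gcn2Δ, an interaction of -2.60 (SE 0.14, adjusted p = 1.82e-12). LEU4 and LEU9, the isopropylmalate synthases, had interactions of -2.22 and -1.72 from opposite wild type responses of 2.03 and -2.10. BAT1, the mitochondrial branched-chain transaminase, had one of -1.66 and its cytosolic counterpart BAT2 one of -0.40. LEU2, deleted in BY4741, was near 0 CPM and was not called.

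Aromatic synthesis was lower for 12 of 14 genes, with a median of -1.30. ARO3 and ARO4, the paired enzymes of the first step, had similar interactions from unlike responses. ARO3 rose from 179, 199 and 179 to 574, 576 and 609 CPM in wild type and fell from 164, 167 and 166 to 78.02, 75.2 and 76.5 CPM in gcn2Δ, an interaction of -2.78 (SE 0.0808, adjusted p = 3.39e-17). ARO4 was at 642 ± 53.4 and 574 ± 19.8 CPM in untreated and treated wild type, and at 551 ± 26.05 and 74.8 ± 10.2 CPM in gcn2Δ (SD, n = 3), an interaction of -2.72 (SE 0.138). Its response in wild type was -0.16 (adjusted p = 0.121). The tryptophan genes TRP4, TRP2, TRP3 and TRP5 had interactions of -1.87, -1.62, -1.52 and -1.24, while TRP1 was at -0.36. ARO7 and PHA2, which lead to phenylalanine and tyrosine, were not called, at 0.42 and -0.30.

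In the list of serine, glycine, threonine, asparagine and one-carbon enzymes 14 of 20 genes were lower and 1 was higher, with a median of -0.72. HOM3, aspartate kinase, rose from 289, 282 and 222 to 844, 739.8 and 799 CPM in wild type and fell from 197, 207 and 201 to 60.8, 70.98 and 87.5 CPM in gcn2Δ. No treated gcn2Δ library reached an untreated one, and the interaction was -3.05 (SE 0.186, adjusted p = 1.69e-11). HOM2 followed at -2.67, the asparagine synthetase gene ASN1 at -1.93 and the serine synthesis gene SER3 at -1.56. Their paralogs or later steps were not called, with ASN2 at -0.34, SER33 at -0.20, HOM6 at -0.10 and SER2 at 0.05. MIS1, a mitochondrial one-carbon enzyme, was the single higher gene at 0.71.

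**Figure D2:**
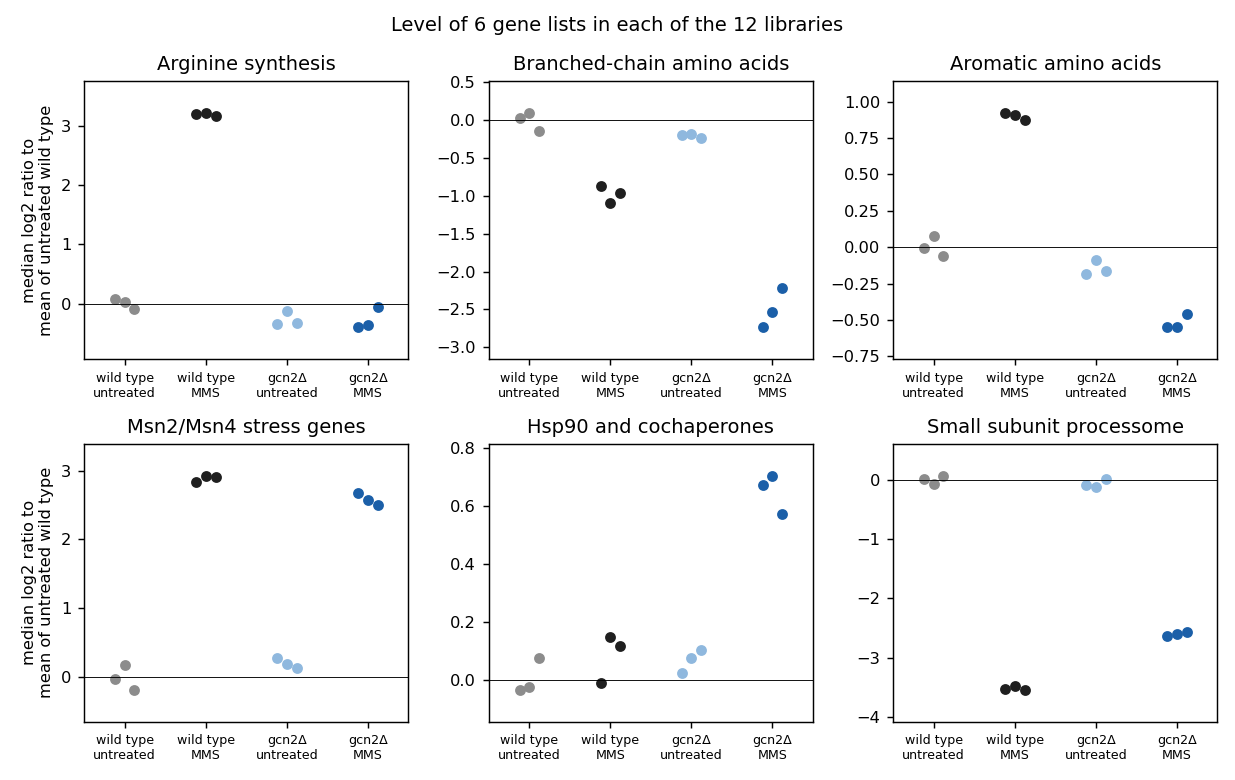
Median log2 ratio of the members of 6 gene lists to their mean in untreated wild type, with 1 point for each of the 12 libraries. Arginine and aromatic synthesis rose in treated wild type and lay below 0 in treated gcn2Δ, branched-chain synthesis fell in both strains and further in gcn2Δ, the median of the Hsp90 list was highest in treated gcn2Δ, and the small subunit processome fell less there.

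Vitamin and cofactor genes were lower for 10 of 16, with a median of -0.58, beside 17.3% of all genes lower. SNZ1, which makes vitamin B6, rose from 14.1, 17.8 and 17.4 to 164, 155 and 163 CPM in wild type and stood at 18.99, 17.1 and 18.1 untreated and 17.3, 17.5 and 16.4 CPM in gcn2Δ. All gcn2Δ libraries overlapped the untreated wild type range or lay just above it, and the interaction was -3.36 (SE 0.117, adjusted p = 7.63e-16). Its partner SNO1 was at -2.01, the riboflavin synthase gene RIB5 at -1.92, the B6 oxidase gene PDX3 at -1.52 and the biotin transporter gene BIO5 at -1.0. BNA1, which acts in synthesis of NAD from tryptophan, rose from 21.3, 23.4 and 25.4 to 138, 154 and 138 CPM in wild type and fell from 28.5, 30.04 and 32.3 to 25.1, 23.4 and 20.2 CPM in gcn2Δ, an interaction of -3.01 (SE 0.165). Mitochondrial carriers were lower for 6 of 15, led by ORT1 and by YMC2 and OAC1 at -1.63 and -1.62.

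Several of the lowest genes lie outside amino acid synthesis. TMT1, a methyltransferase of trans-aconitate and of a leucine precursor, rose from 19.3, 16.7 and 19.2 to 506, 543 and 533 CPM in wild type and from 17.6, 16.7 and 18.3 to 41.2, 38.3 and 40.2 CPM in gcn2Δ. The rise was 28.6-fold against 2.27-fold, and the interaction was -3.66 (SE 0.107, adjusted p = 3.39e-17). ARO5 (YGL117W) stood at 5.99 ± 0.745 and 128 ± 10.96 CPM in wild type and at 5.997 ± 0.466 and 7.62 ± 1.48 CPM in gcn2Δ (SD, n = 3), an interaction of -4.05 (SE 0.191). ALD5, a mitochondrial aldehyde dehydrogenase, rose slightly in wild type, from 309, 306 and 262 to 357, 329.6 and 341 CPM, and fell from 232, 249 and 227 to 29.1, 37.1 and 40.9 CPM in gcn2Δ. The treated gcn2Δ libraries lay below all others, and the interaction was -2.96 (SE 0.141, adjusted p = 1.84e-13). ADH5, an alcohol dehydrogenase, rose 4.91-fold in wild type and fell 1.62-fold in gcn2Δ, an interaction of -2.99 (SE 0.21).

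Amino acid transporters were affected in part. Of 31 genes 10 were lower and 1, MMP1 at 0.51, was higher, with a median of -0.21; over all genes 17.3% were lower. RTC2, a vacuolar exporter of basic amino acids, rose from 0.7002, 1.42 and 1.62 to 42.1, 37.8 and 39.8 CPM in wild type and from 2.19, 1.79 and 1.32 to 3.69, 3.08 and 4.54 CPM in gcn2Δ, an interaction of -3.84 (SE 0.31, adjusted p = 2.17e-09). AGP1, a permease of broad specificity, rose from 81.1, 86.5 and 59.4 to 269.6, 248 and 271 CPM in wild type and stood at 68.2, 69.9 and 64.9 and 50.6, 56.7 and 69.3 CPM in gcn2Δ, an interaction of -2.0 (SE 0.165). BAP3, the arginine permease CAN1, MUP1, GAP1 and BAP2 followed at -1.08, -1.06, -0.82, -0.77 and -0.71. TAT1, TAT2, PUT4 and UGA4 lay between 0.03 and 0.20 and were not called. Without untreated wild type replicate 3 the list had 8 lower and 3 higher genes.

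Among 27 regulators of amino acid and nitrogen genes 10 were lower and 2 higher, beside 17.3% and 18.6% of all genes. Their median was -0.18. UGA3, an activator of GABA use whose promoter holds a Gcn4 site, rose from 22.01, 22.7 and 24.2 to 113, 124 and 119.9 CPM in wild type and was at 22.6, 25.1 and 21.7 and 28.5, 31.7 and 28.4 CPM in gcn2Δ, an interaction of -2.01 (SE 0.125, adjusted p = 2.38e-11). MET28, a leucine zipper cofactor of sulfur genes, was at -2.02, the nitrogen activators GLN3 and GAT1 at -1.29 and -1.19, and BAS1, a regulator of purine and histidine genes, at -0.95. GCN4 mRNA itself fell more in gcn2Δ, from 1044, 1018 and 1007 to 326, 345 and 387 CPM, than in wild type, from 961, 946 and 1007 to 581, 566 and 557 CPM. Its interaction was -0.76 (SE 0.112, adjusted p = 1.27e-05). MBF1 mRNA went the other way, from 281 ± 19.3 to 712 ± 39.5 CPM in wild type and from 270.3 ± 37.4 to 1011 ± 59.98 CPM in gcn2Δ (SD, n = 3), an interaction of 0.56 (SE 0.144). LEU3, CBF1, RAP1, PHO2 and ARG81 lay between -0.09 and 0.16 and were not called.

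The list of 18 genes of the Gcn2 pathway and of eIF2 and its exchange factors had a median of 0.25. In it 6 were higher and none lower, beside 18.6% and 17.3% of all genes. The eIF5 gene TIF5 was at 0.92 and the eIF3 gene TIF35 at 0.67, followed by GCD1 and GCD2 of eIF2B at 0.55 and 0.43 and GCD11, eIF2 gamma, at 0.49. GCN1 and GCN20 were not called, at 0.22 and -0.01. Sensors and rescue factors of collided ribosomes were higher for 12 of 28 and lower for none, led by RQC2 at 1.02, which elongates stalled peptides, SMY2 at 0.81 and RBG2 at 0.78. On the TPM scale 3 of the 18 pathway genes were higher.

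**Figure D3:**
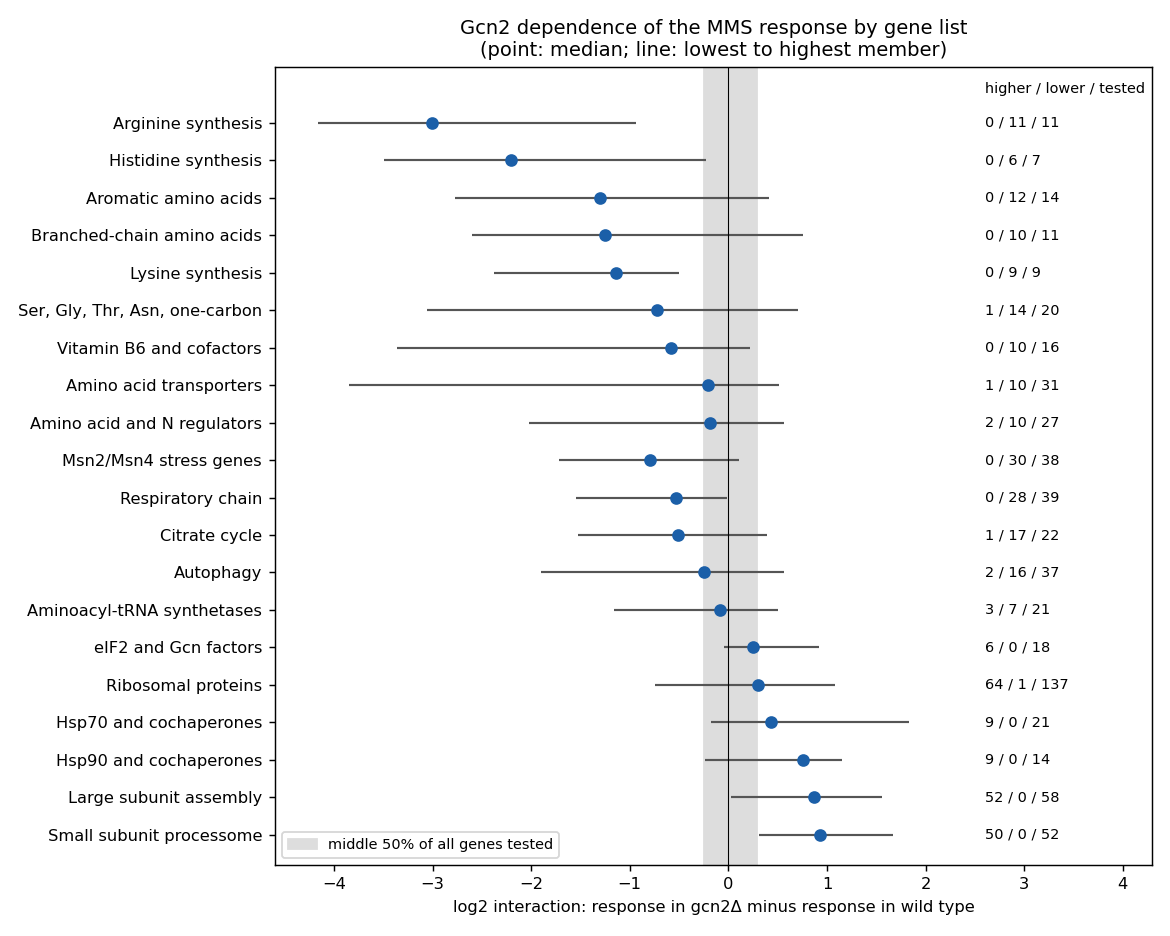
Log2 interaction (response in gcn2Δ minus response in wild type) of 20 gene lists, with the median as a point, the lowest to the highest member as a line, and the numbers called higher, called lower and tested at the right. The shaded band holds the middle 50% of all genes tested (-0.25 to 0.29); the 5 synthesis pathways from arginine to lysine have medians from -3.00 to -1.14 and both ribosome assembly lists lie near 0.9.

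General stress genes rose in both strains, but less without Gcn2. In the list of genes driven by Msn2 and Msn4, the activators of the environmental stress response, 30 of 38 were lower and none higher. The share lower over all genes was 17.3%, and the median of the list was -0.79. All 38 rose in wild type and 36 in gcn2Δ, with medians of 2.87 and 2.34. GSY2, a glycogen synthase, rose from 55.8, 82.02 and 55.9 to 784, 771 and 736 CPM in wild type and from 112, 86.2 and 86.4 to 365, 325 and 334 CPM in gcn2Δ. Before treatment every gcn2Δ library was above every wild type one, a difference that was not called, and after it every one was below, and the interaction was -1.72 (SE 0.25, adjusted p = 1.17e-05). GPH1, glycogen phosphorylase, and SOL4, of the pentose phosphate pathway, were at -1.69 and -1.57. Without untreated wild type replicate 3 the list had 25 lower genes and a median of -0.72. The 8 stationary phase markers summed to 603 to 634 CPM in treated wild type and 571 to 646 CPM in treated gcn2Δ, which overlap. Single markers did not all overlap: HSP26 was at 322 to 328 and 375 to 418 CPM in these groups. SPG5 went the other way, at 206 to 229 and 127 to 163 CPM. Of the 8 markers 2 had a lower interaction, SPG1 and SPG4. They lay at 0.3 to 3.25 and 0.267 to 0.899 CPM, near the floor, and their treated libraries overlapped between strains.

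Mitochondrial energy genes were also lower in more members than the 17.3% of all genes. The respiratory chain list had 28 of 39 genes lower and none higher, with a median of -0.53, and the citrate cycle list 17 of 22 lower and 1 higher, with a median of -0.51. CYC7, the stress isoform of cytochrome c, was at -1.54, and SDH2 and SDH1, of succinate dehydrogenase, were at -1.18 and -1.05. PYC2, a pyruvate carboxylase, was at -1.53, while the other pyruvate carboxylase PYC1 was higher at 0.37. Of 67 mitochondrial ribosomal protein genes 13 were higher and 3 lower, the first count near the 18.6% of all genes, and 24 higher without treated gcn2Δ replicate 3. On the TPM scale 17 of the 39 respiratory genes were lower and 3 of the 67 mitochondrial ribosomal genes higher.

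Of 37 autophagy genes 31 rose in wild type and 32 in gcn2Δ, beside 42% and 41.3% of all genes. The interaction was lower for 16 of the 37 and higher for 2, beside 17.3% and 18.6% of all genes. ATG41 was at -1.90, the nuclear envelope receptor gene ATG39 at -1.20 and the mitophagy gene ATG33 at -1.18. Nitrogen catabolite genes were lower for 10 of 30 and higher for 1, with APE1, a vacuolar aminopeptidase, at -1.05. Of the oxidant defence list 14 of 38 were lower and 4 higher, with the peroxiredoxin gene TSA2 at -1.62 and the transporter gene ATR1 at -1.11. FLR1, a multidrug exporter, went the other way, from 52.2, 49.2 and 38.5 to 438, 427 and 422 CPM in wild type and from 31.1, 36.3 and 31.1 to 847, 1017 and 1154 CPM in gcn2Δ. It was among the 15 highest genes at 1.73 (SE 0.176, adjusted p = 7.88e-08).

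Among chaperone genes the interaction was higher for a number of members of the Hsp90 and Hsp70 lists. Of 14 genes of Hsp90 and its cochaperones 9 were higher, with a median of 0.76. Of 21 genes of Hsp70, Hsp110 and cochaperones 9 were higher, with a median of 0.44. None was lower in either list, and over all genes 18.6% were higher and 17.3% lower. The Hsp70 count became 14 without untreated wild type replicate 3. In wild type 10 of the 21 Hsp70 genes rose and 11 fell after MMS, and in gcn2Δ 10 rose and 9 fell. For the Hsp90 list 6 rose and 6 fell in wild type, and 9 rose and 5 fell in gcn2Δ. Over all genes 42% rose and 41.2% fell in wild type, and 41.3% rose and 40.4% fell in gcn2Δ. Before treatment none of the 35 was called, or, without that library, 1 higher and 4 lower in the Hsp70 list and 1 higher in the Hsp90 list. SSA4, the stress-induced Hsp70, rose from 36.01, 36.9 and 26.7 to 342, 304 and 347 CPM in wild type and from 26.8, 32.2 and 29.4 to 995, 953 and 1215 CPM in gcn2Δ. The untreated strains overlapped and the treated ones did not, and the rise was 10-fold against 35.8-fold, an interaction of 1.84 (SE 0.199, adjusted p = 2e-07).

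BTN2, which sorts misfolded proteins into inclusions, rose from 11.2, 11.9 and 10.8 to 53.6, 59.9 and 55.04 CPM in wild type and from 11.7, 11.7 and 10.5 to 269.8, 239 and 205 CPM in gcn2Δ, an interaction of 2.08 (SE 0.221, adjusted p = 1.52e-07). FES1, an exchange factor of Hsp70, went from 55.5, 67.5 and 61.3 to 116, 119 and 122 CPM in wild type and from 54.5, 63.7 and 51.6 to 309.9, 279.5 and 292 CPM in gcn2Δ, an interaction of 1.43 (SE 0.104). HSP82, an Hsp90 gene whose copy HSC82 is 91.8% identical, reached 637 ± 29.1 CPM in treated wild type and 1428 ± 11.8 CPM in treated gcn2Δ (SD, n = 3), from 121 ± 7.16 and 128 ± 8.89 CPM, an interaction of 1.08 (SE 0.111). SSE1, the Hsp110, fell in wild type (log2 -1.18) and was not called in gcn2Δ (log2 -0.03, adjusted p = 0.679), an interaction of 1.15. The cochaperones CPR6 and HCH1 were at 1.03 and 1.15.

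The list of small heat shock and aggregate proteins was split, with 7 of 19 higher and 3 lower, beside 18.6% and 17.3% of all genes. MDJ1, a mitochondrial Hsp40, was at 0.85, whereas HSP31, HSP12 and HSP78 were lower at -1.19, -0.86 and -0.41, and HSP26 was not called at -0.33. Without untreated wild type replicate 3 HSP12 was not called by the same test, at -0.78 (adjusted p = 0.109). Its treated libraries overlapped between wild type and gcn2Δ, while its untreated ones did not. HSP12 is also a member of the Msn2 and Msn4 list. In the endoplasmic reticulum list 5 of 19 were higher and 2 lower, led by SCJ1 at 0.82, ERO1 at 0.55 and KAR2 at 0.46. Proteasome genes, all 35 of which rose in both strains, had 5 higher and 1 lower, both under the shares of all genes. Their median was 0.07.

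The heat shock element searched for was 3 units of GAA and TTC in turn, each 2 bases apart, on either strand. Windows around 3 such elements in genes of the Hsp70 and Hsp90 lists are shown, with the units in capitals, on the gene's strand in R64.
FES1: ttggactgGAAtcTTCtgGAAgttttttg
SSE1: gaagatgaTTCtaGAAgaTTCcttttcca
STI1: gtatgataGAAcaTTCcaGAAaaaaaatt
These windows lie at chrII:444844-444872 (minus strand) for FES1, chrXVI:352441-352469 (minus strand) for SSE1 and chrXV:380829-380857 (plus strand) for STI1. The elements in them begin 171, 186 and 216 bases before the start codon. Of the 124 promoters of genes at least 2-fold higher 2.42% hold the element, of those of the 221 genes at least 2-fold lower 1.36%, and of all promoters 0.791%. These are 3 promoters in each of the first 2 classes, too few to compare. No such element was found within 250 bases before the start codon of BTN2, SSA4 or HSP82. It was in 1 of the promoters of the 15 highest genes and in 2 of those of the 15 lowest.

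Ribosome assembly genes fell in both strains, and less without Gcn2, with 1 large subunit gene rising in gcn2Δ. Of 52 genes of the small subunit processome 50 were higher and none lower, with a median of 0.93. Of 58 genes of large subunit assembly 52 were higher and none lower, with a median of 0.87, beside 18.6% of all genes higher. The median responses were -3.49 in wild type and -2.51 in gcn2Δ for the first list, and -3.98 and -3.05 for the second. NOG2, a GTPase of large subunit export, fell from 208, 185 and 206 to 8.72, 5.72 and 7.304 CPM in wild type and from 169, 173 and 181 to 19.5, 15.7 and 19.99 CPM in gcn2Δ. The treated groups did not overlap, and the fall was 27.9-fold against 9.49-fold, an interaction of 1.55 (SE 0.168, adjusted p = 1.91e-07).

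ESF1, a processome factor, fell from 200.3, 180.2 and 212 to 18.1, 16.8 and 16.1 CPM in wild type and from 185, 163 and 195 to 50.5, 48.8 and 49.4 CPM in gcn2Δ, an interaction of 1.67 (SE 0.155, adjusted p = 1.91e-08). NOP14 and BFR2 of the small subunit and SSF1 and DRS1 of the large one were at 1.51, 1.44, 1.35 and 1.34, and SSF1 has a copy, SSF2, at 92.2% identity. Of 137 ribosomal protein genes 64 were higher and 1, RPL15B at -0.75, was lower, with a median of 0.30, and 30 were higher on the TPM scale. RNA polymerase I and III genes were higher for 16 of 35 and lower for 1, led by RRN11, a polymerase I initiation factor, at 1.25. The cyclin gene PCL1 and the cell wall gene TIP1 were also among the 15 highest, at 1.46 and 1.45.

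Many ribosome assembly promoters carry the PAC motif GATGAG and the core of the ribosomal RNA processing element (RRPE), AAAATTTT. PAC was in 5 of the promoters of the 15 highest genes and in 4 of those of the 15 lowest. Windows of 30 bases around PAC motifs of 4 ribosome assembly genes among the 15 highest are shown. Capitals mark the motif, or CTCATC on the opposite strand.
ESF1: atttcatctcatCTCATCtcaaattcatca
NOG2: ttttgcccgatgCTCATCgcaaaaattttt
NOP14: tgataatttagaGATGAGcatttagcgaga
BFR2: aatacgcgatgaGATGAGataattgtatat
These windows lie at chrIV:1206485-1206514, chrXIV:723276-723305 and chrIV:190661-190690 on the minus strand and at chrIV:1059511-1059540 on the plus strand of R64. The marked motifs begin 119, 181, 92 and 104 bases before the start codon, in the order shown. PAC motifs before the start number 3 in ESF1, 1 in NOG2, 2 in NOP14 and 2 in BFR2. The ESF1 and BFR2 windows each hold another motif that overlaps the marked one and is not in capitals.

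Promoter motifs were unevenly spread over the 2 directions of the interaction. The Gcn4 site was in 45 of 221 promoters of genes at least 2-fold lower (20.4%), in 7.38% of those 1.5 to 2-fold lower, in 1.83% of those not called and in 1.61% of those at least 2-fold higher. PAC was in 68 of 124 promoters of genes at least 2-fold higher (54.8%), against 18.1% of those at least 2-fold lower and 19.7% of all. The RRPE core was in 46.8% of the higher class, 4.07% of the lower class and 9.23% of all. The stress response element AGGGG was commonest among genes 1.5 to 2-fold lower, at 41.9%, against 29.4% of those at least 2-fold lower, 12.9% of the higher class and 22.0% of all. The Yap1 motif TTACTAA was in 8.6%, 5.65% and 7.6% of the lower class, the higher class and all. Each motif was searched on both strands, no motif searched contains another, and these shares describe the letters in the windows only. With the window ended at the start codon the Gcn4 share of the lower class was 19.9% and the PAC share of the higher class 53.2%.

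**Figure D4:**
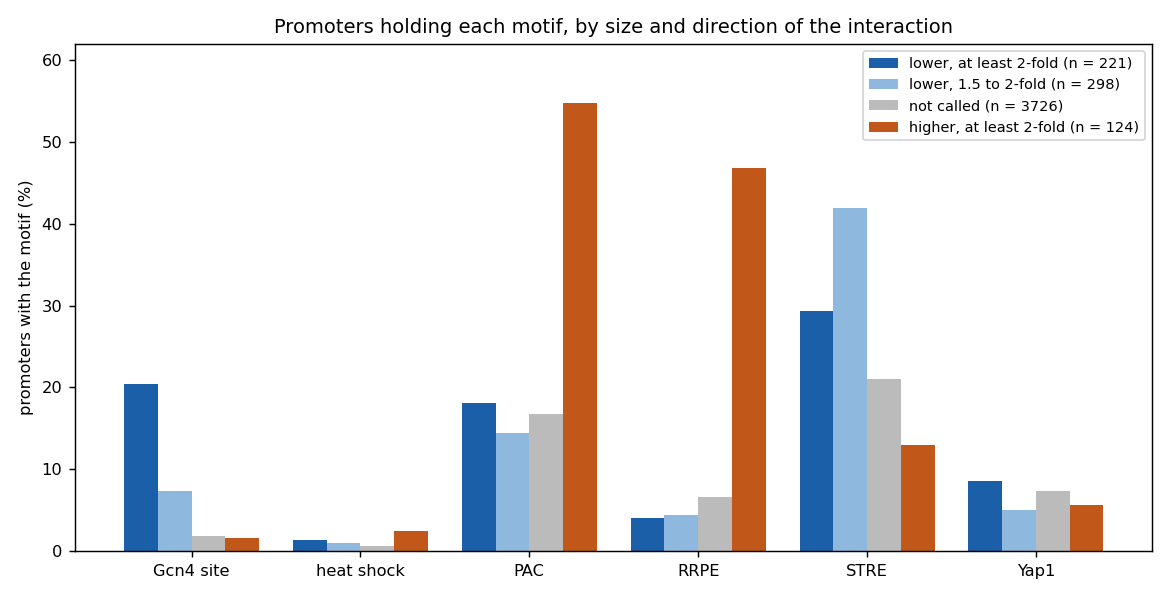
Share of promoters (250 bases before to 50 after the start codon, in percent) that hold each of 6 motifs, for genes at least 2-fold lower (n = 221), 1.5 to 2-fold lower (n = 298), not called (n = 3726) and at least 2-fold higher (n = 124) in the interaction. Bars for the Gcn4 site are highest in the lowest class (20.4%), those for PAC and RRPE in the higher class (54.8% and 46.8%), and that for STRE, the stress response element, in the 1.5 to 2-fold lower class (41.9%).

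Other lists showed few or mixed calls, beside 18.6% of all genes higher and 17.3% lower. Aminoacyl-tRNA synthetases fell in both strains, and 7 of 21 were lower and 3 higher, with KRS1, DPS1 and DED81, for lysine, aspartate and asparagine, at -1.16, -1.09 and -1.06. Purine synthesis was lower for 8 of 20 and higher for 3, from ADE12 at -1.30 to the IMP dehydrogenase gene IMD4 at 1.13. Sulfur genes were lower for 9 of 25 and higher for 4, between SAM4 at -2.26 and MHT1 at 1.15, which both methylate homocysteine. Glutamate, glutamine and proline enzymes were lower for 5 of 11, led by GLN1, glutamine synthetase, at -1.35. Histones were lower for 5 of 11. Ergosterol genes were lower for 5 of 27, near the share of all genes, with 3 higher. Of the checkpoint and repair list 3 of 40 were lower and 3 higher, both under the shares of all genes. Without treated gcn2Δ replicate 3, 7 were higher. Base excision and alkyl repair was higher for 6 of 18 and lower for 2, led by OGG1 at 1.03. Hexose transporters were higher for 4 of 22 and lower for 4, near the shares of all genes.

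The differences called before treatment included genes next to GCN2 and genes of phosphate supply. MRX10, which neighbours GCN2 on chromosome IV (1023511 to 1024755), was at 11.1, 9.44 and 9.81 CPM in untreated wild type and 4.87, 4.103 and 4.67 CPM in untreated gcn2Δ, a difference of -1.14 (SE 0.109, adjusted p = 1.32e-06). After MMS it was at 16.7, 18.7 and 17.02 and 9.49, 9.45 and 8.45 CPM, and its interaction of 0.20 was not called. The other neighbours were PHM6 at -0.32, DPP1 at -0.60 and ZIP1 at 0.53, of which DPP1 was called (adjusted p = 0.00178). PHM6 and PHO84, the phosphate transporter, were lower before treatment by -0.72 and -0.91 (adjusted p = 0.0155 and 0.0477), 2 of 6 of the 17 phosphate genes that were. Without untreated wild type replicate 3 the 6 became 11, and with the ribosomal RNA share as a covariate no more than 3 genes of any kind were called lower before treatment. After MMS 15 of the 17 were lower in gcn2Δ, beside 25.5% of all genes, and 6 had a lower interaction and 1 a higher one. PHM6 belongs both to the neighbours of the deleted gene and to the phosphate list.

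Reads of some of the highest genes cannot be told apart from those of a copy or neighbour. YRF1-6, a subtelomeric helicase gene, had the highest interaction among the called genes that averaged 50 or more counts in a group, at 2.71, with 0, 0 and 11.3 CPM in treated wild type and 25.2, 5.94 and 22.97 CPM in treated gcn2Δ, but it has an identical copy and its libraries were widely spread. FYV5 at 1.68 lies 74.5% inside its neighbour ADF1, and SOR1, sorbitol dehydrogenase, at 1.45 has a copy, SOR2, at 99.9% identity. HXT10, a hexose transporter gene, rose from 1.04, 1.06 and 0.862 to 4.02, 3.41 and 3.91 CPM in gcn2Δ and was at 0.8003, 0.891 and 1.29 and 1.18, 1.301 and 0.978 CPM in wild type, an interaction of 1.75 (SE 0.317).

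The gcn2Δ response was also tested directly against that of gcn4Δ, which asks where loss of the kinase and loss of the activator differ. The 2 contrasts with wild type share its libraries, so only the test of the difference itself is given as a result. It was called for 1905 genes (32.7%), 841 higher (14.5%) and 1064 lower (18.3%) in gcn2Δ. On the TPM scale 146 were higher and 809 lower, and with the share of counts at the ribosomal RNA locus as a covariate 1462 were higher and 1622 lower. That share was 0.999 to 1.49% in untreated and 0.345 to 0.583% in treated gcn4Δ.

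Amino acid genes were lower in gcn2Δ than in gcn4Δ for 6 of 11 arginine, 4 of 7 histidine, 5 of 9 lysine, 6 of 11 branched-chain and 9 of 14 aromatic genes, and none was higher. ARG1 had an interaction of -4.17 in gcn2Δ and -2.98 in gcn4Δ, and the difference was -1.18 (SE 0.124, adjusted p = 8.68e-07). For ARG7 and SNZ1 the differences were not called, at -0.09 (SE 0.0717) and 0.12 (SE 0.115), with adjusted p of 0.336 and 0.452. Translation genes differed in the same direction, with 116 of 137 ribosomal protein genes lower and 2 higher at a median of -0.69, 20 of 21 synthetases lower, and 18 of 20 purine genes lower. RPL4B was at -1.68, but its copy RPL4A is 99.3% identical.

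The aggregate and Hsp90 lists differed in the other direction, and the Hsp70 list was mixed. Of the aggregate list 15 of 19 were higher in the gcn2Δ response than in the gcn4Δ response and none lower. In the Hsp90 list 8 of 14 were higher and none lower, and in the Hsp70 list 10 of 21 were higher and 5 lower. Over all genes 14.5% were higher and 18.3% lower in this test. SSA4 was at 28.7, 28.3 and 24.97 and 203, 214 and 217 CPM in untreated and treated gcn4Δ, a difference between the responses of 2.21 (SE 0.197, adjusted p = 2.38e-07). BTN2 was at 10.7, 11.9 and 9.91 and 57.6, 61.8 and 58.7 CPM there, a difference of 1.95 (SE 0.208, adjusted p = 9.44e-07). In both genes every treated gcn2Δ library lay above every treated gcn4Δ library. HSP12 differed by 1.88, while the glycogen synthase gene GSY1 differed by -2.09 in the other direction.

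**Figure D5:**
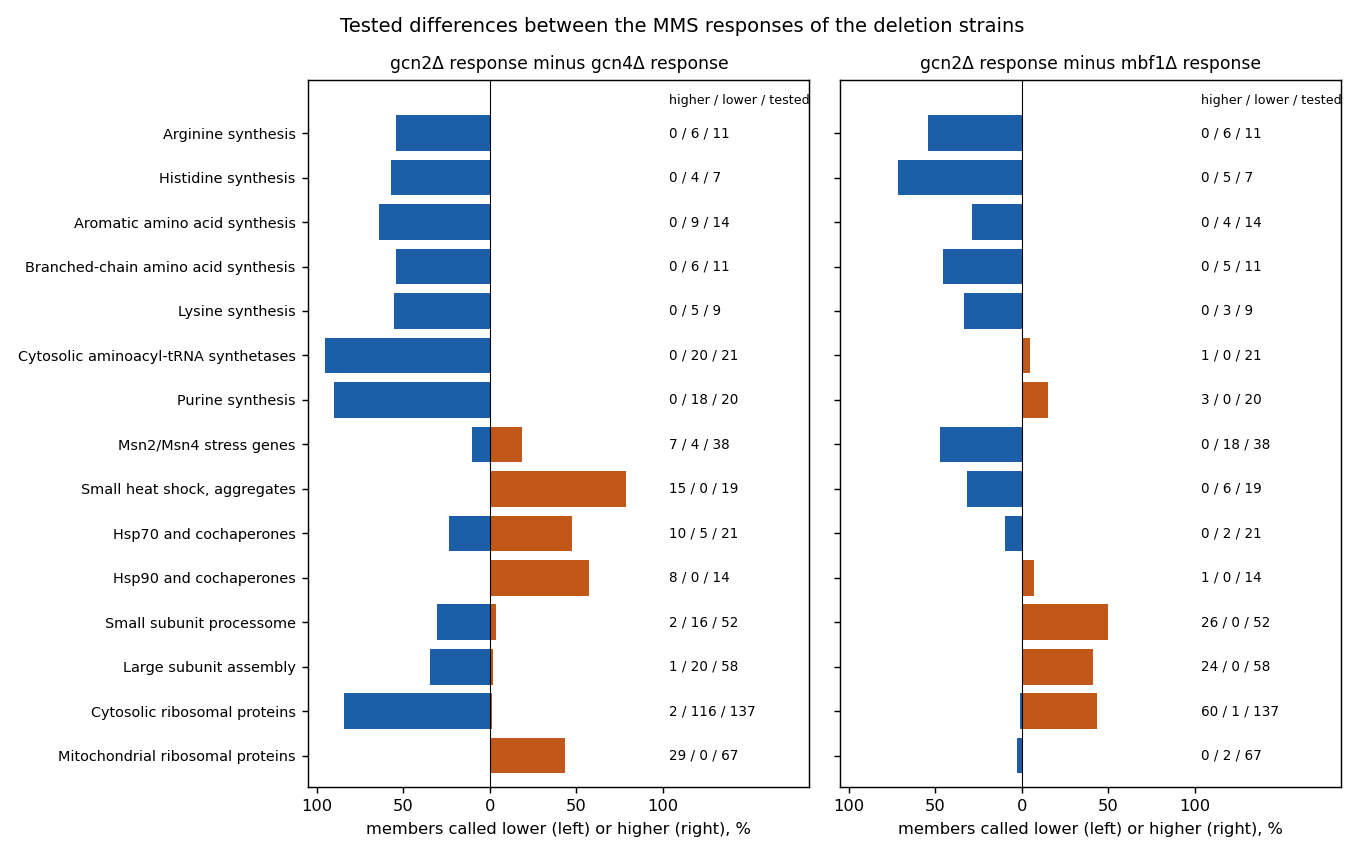
Members of 15 gene lists called lower (left, blue) or higher (right, orange) in the gcn2Δ response than in the gcn4Δ response (left panel) or the mbf1Δ response (right panel), in percent of the members tested, with the numbers called higher, called lower and tested. Against gcn4Δ ribosomal proteins, synthetases and purine genes were lower, the aggregate and Hsp90 lists mostly higher, and the Hsp70 list mixed. Against mbf1Δ ribosome assembly and ribosomal protein genes were higher and stress genes lower.

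Against the mbf1Δ response 392 genes (6.74%) were called, 235 higher (4.04%) and 157 lower (2.7%). Arginine genes were lower in gcn2Δ for 6 of 11 and histidine genes for 5 of 7, and none was higher. ARG7 stood at 82.9, 79.3 and 79.7 CPM in untreated and 161, 151 and 155 CPM in treated mbf1Δ, a difference between the responses of -1.69 (SE 0.0712, adjusted p = 3.3e-13). Its treated mbf1Δ libraries lay between those of treated gcn2Δ and treated wild type. Processome genes were higher in gcn2Δ for 26 of 52, large subunit assembly genes for 24 of 58 and ribosomal protein genes for 60 of 137, with 1 of the last lower. Stress genes of the Msn2 and Msn4 list were lower for 18 of 38. For SSA4 the gcn2Δ and mbf1Δ responses differed by -0.76 (SE 0.197, adjusted p = 0.0214) and for BTN2 by -0.17 (SE 0.212, adjusted p = 0.724). Without untreated mbf1Δ replicate 2 the counts fell to 140 higher and 81 lower.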

How the data were processed

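Poly-A RNA of 24 cultures was sequenced as paired reads of 150 bases. Per the submitters' processing notes, reads were checked with FastQC 0.11.9, trimmed with fastp and quantified with Salmon 1.10.1 against the R64 build, and DESeq2 1.38.3 was used. The deposited files, per the file headers, give for each gene a length in bases, an effective length, an estimated count and a TPM value. Of the gene models, 5623 of 5909 matched to RefSeq are the coding length plus 400 bases, so reads in flanks of neighbouring genes may be shared. The authors' deposited table of the interaction gives log2 fold changes, p-values and a mean normalized count (score) and calls 2229 of 5908 genes, 1221 higher and 1008 lower. Whether counting used strand is not given in the sources used here.

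Estimated counts were rounded and then tested in edgeR 4.0.16 (R 4.3.3), with a filter at a minimum count of 10 and TMM scaling, and fitted by quasi-likelihood with 1 coefficient for each of 8 groups and 16 residual degrees of freedom. P-values were adjusted by Benjamini-Hochberg over 5824 genes with a threshold of 0.05. A standard error is the log2 value divided by the square root of F. The biological coefficient of variation was 8.49%. Alternatives were DESeq2 1.42.0 and limma 3.58.1 on log2(TPM + 1) and log2(TPM + 0.1), other filters and scalings, a replicate block and the ribosomal RNA share. Each library of the groups compared was also left out in turn.

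Copies were found with blastn 2.17.0 as at least 90% identity over at least 50% of the length (301 genes), and 101 genes lie over 10% inside another. Promoter windows were read from the RefSeq R64 genome. The text names the 15 highest and 15 lowest called interactions of genes that averaged 50 or more counts in a group, 5 per direction for each difference of responses, members of the amino acid and Gcn lists, 3 called members per direction of other lists, and 2 genes on each side of GCN2. ARG1, SSA4, BTN2 and SNZ1 are also given for comparisons whose rule did not pick them. Genes that the rule picked but that are withheld are not reported here. The lists and members were chosen with earlier results of these data known. Replicates are labelled as biological, and each p-value sets a difference against the spread between cultures, estimated over all 8 groups.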

Additional observations from a re-analysis of the deposited data

Results flagged for a closer look

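The interaction itself is a difference between 2 strains in the same contrast, and its test called 2091 genes. The test of the gcn2Δ response against the gcn4Δ response called 1905 genes, and that against the mbf1Δ response called 392. Each gene below was picked because the test of the difference itself passed the threshold and its size was among the 5 most extreme in its direction.

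Against gcn4Δ, YER053C-A was lower in the gcn2Δ response by -2.59 (log2), GSY1, a glycogen synthase gene, by -2.09, PAU4 by -1.96, RPL4B by -1.68 and FIT2, a cell wall protein of iron uptake, by -1.61. Higher values were found for TEN1, a telomere cap subunit, at 1.66, HSP12 at 1.88, BTN2 at 1.95 and SSA4 at 2.21. TAR1, at 2.65, lies in the ribosomal RNA locus, whose share of counts was 12.1 to 15.2% in treated gcn2Δ and 0.345 to 0.583% in treated gcn4Δ; the part of that share in this value was not tested.

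Against mbf1Δ, the lower genes were ARG7 at -1.69, HSP12 at -1.44, HSP26 at -1.28 and EGO4 at -1.26. The higher genes were PCL1, a cyclin gene, at 0.99, INA1 at 1.02, SCW10 at 1.17, TOS6 at 1.55 and MUM3 at 2.15. MUM3 lies next to MBF1, the gene deleted in mbf1Δ, and 18% of its flanked model is shared with neighbouring models; the part of the deleted locus in this value was not tested. HSP12 thus differed from both deletions, in opposite directions, at 1.88 and -1.44.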

How the results depend on the processing

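The interaction kept its counts within 1.5 times under other scalings, filters, DESeq2 and the ribosomal RNA settings, and ranged from 932 to 1194 higher and 860 to 996 lower over the 12 libraries left out in turn. With limma on TPM 611 (1 added) or 603 (0.1 added) genes were higher, and 75 at least 2-fold higher with 1 added. The cause was not tested. Replicate numbers were not used as pairs in the main fit, and whether they stand for a shared batch was not tested. Same-numbered libraries correlated at -0.552 to 0.19 (18 pairs, 4 over 0.1), lowest between untreated wild type 3 and treated gcn2Δ 3. With the replicate block 1036 genes were higher and 980 lower. Of 314 named genes 244 were called, 188 of them under every alternative scored, and none reversed. For the named genes only the 12 libraries of the contrast were left out in turn. Libraries outside the contrast also enter the shared spread. Without treated mbf1Δ replicate 1 the interaction was called higher for 1375 genes and lower for 1038. Before treatment, 7 higher calls became 66 (DESeq2), 4 (12 libraries), 2836 and 2973 (TPM) and 1 (ribosomal RNA share), and 0 to 530 without 1 library. The 18 lower calls became 326 (DESeq2), 28 (TPM + 0.1) and 3 (ribosomal RNA share), and 6 to 626 without 1 library. After MMS, TPM gave 3059 and 3027 higher and 585 and 573 lower. Against gcn4Δ, TPM gave 146 and 134 higher, the share as covariate 1462 higher and 1622 lower, and leaving out 1 library 547 to 965 higher. Against mbf1Δ, DESeq2 gave 366 higher, TPM 66 and 69 higher and 63 and 66 lower, and leaving out 1 library 140 to 320 higher and 81 to 182 lower. Genes with few counts are limited by depth.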
